A study of Homo sapiens with 6 samples.

Results

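A set of 10 immediate early genes was followed through cultured human cardiomyocytes: FOS, FOSB and FOSL2 of the Fos family, JUN, JUNB and JUND of the Jun family, EGR1, EGR2 and EGR3 of the early growth response family, and IER2. They were chosen by name, with earlier results of these data known, and matched by symbol. All 10 were among the 21134 genes listed. The cells were cardiomyocytes differentiated from the stem cell line H9, which the labels call an induced pluripotent line and which is known as a line of embryonic origin. RNA was sequenced from 2 libraries of cells with no treatment (control), 2 of cells given 100 mM alcohol for 24 h (alcohol) and 2 of cells given the same alcohol with 1 μM losartan, a blocker of the angiotensin II type 1 receptor, for 24 h (co-treated). No library of losartan without alcohol was analysed here, every library came from the same line, and no source states whether the 2 repeats of a group were separate cultures, so p-values measure only the spread between these libraries, which may be technical.

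Immediate early genes are transcribed within minutes of a signal, without new protein synthesis, and most of their mRNAs and proteins are short-lived. Jun and Fos proteins pair through leucine zippers into the transcription factor AP-1. Jun proteins can pair with each other, while Fos proteins need a Jun partner. The EGR proteins are zinc finger factors that bind GC-rich sites, and IER2 is a small nuclear protein. In heart muscle cells this class is known to respond to stretch, to angiotensin II and to stress kinases, through serum response factor at CArG boxes and through CREB and ATF proteins at cAMP response elements.

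The promoters of JUN, JUND, EGR1 and FOS are shown because the first pair carried the differences described in most detail below and the second pair are textbook cases of CREB and serum response factor binding. Each is the 250 bases before the RefSeq start site in GRCh38.p14, written 5′ to 3′ on the strand of the gene. They lie at chr1:58784048-58784297 on the minus strand for JUN, chr19:18281623-18281872 on the minus strand for JUND, chr5:138465229-138465478 on the plus strand for EGR1 and chr14:75278578-75278827 on the plus strand for FOS. Capitals mark, on either strand, the cAMP response element TGACGTCA and its core TGACG, the variant TGACATCA that ATF2 with JUN is known to bind, CArG boxes, CCAAT and TATAAA.
JUN: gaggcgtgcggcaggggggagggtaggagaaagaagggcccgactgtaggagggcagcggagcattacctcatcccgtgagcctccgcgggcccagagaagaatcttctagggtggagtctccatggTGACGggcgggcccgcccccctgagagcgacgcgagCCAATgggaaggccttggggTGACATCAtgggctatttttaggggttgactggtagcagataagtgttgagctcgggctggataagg
JUND: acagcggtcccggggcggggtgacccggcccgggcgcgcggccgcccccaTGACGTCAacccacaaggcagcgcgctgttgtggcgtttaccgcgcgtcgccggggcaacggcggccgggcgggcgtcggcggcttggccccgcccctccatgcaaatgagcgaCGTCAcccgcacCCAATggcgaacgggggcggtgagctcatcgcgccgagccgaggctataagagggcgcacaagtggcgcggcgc
EGR1: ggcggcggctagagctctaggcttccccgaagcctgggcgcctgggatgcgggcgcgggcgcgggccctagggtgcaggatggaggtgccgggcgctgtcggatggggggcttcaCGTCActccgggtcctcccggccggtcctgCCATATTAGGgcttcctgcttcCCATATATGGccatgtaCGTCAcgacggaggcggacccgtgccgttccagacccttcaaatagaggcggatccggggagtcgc
FOS: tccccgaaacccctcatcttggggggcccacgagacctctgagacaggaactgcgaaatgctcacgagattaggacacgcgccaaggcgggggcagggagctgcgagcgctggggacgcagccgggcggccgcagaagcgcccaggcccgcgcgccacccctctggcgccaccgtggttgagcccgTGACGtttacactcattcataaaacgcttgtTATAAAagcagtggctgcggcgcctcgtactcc

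The core TGACG stood in 8 of the 9 promoters that were matched, all but that of EGR2, against 21.7% of 27305 promoters of the same length. The GC content of these 8 promoters was 62.0% to 74.8%, against 54.8% for EGR2 and a median of 58.0% over all promoters. Its part in the share with the core was not tested. TGACATCA was found in JUN alone of the 9, 67 to 60 bases before the start site, against 2.45% of all promoters. The complete TGACGTCA was found in JUND alone, 200 to 193 bases before the start, against 1.77%, and it includes a core on each strand. Within the 250 bases, EGR1 alone of the 9 carried CArG boxes, 2 of them, against 1.14% of promoters with at least 1. They lay 105 to 96 and 83 to 74 bases before the start. Sites further upstream, of FOS or any other member, were not searched. TATAAA was present in FOS, FOSB and JUNB, against 11.1%, and CCAAT in JUN, JUNB and JUND, against 33.0%. The AP-1 site TGACTCA was in none of the 9 windows, against 4.16% of all promoters. These matches of letters describe the windows only, and the RNA data do not show which of them was bound.

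Expression spanned more than 2 orders of magnitude across the class, in FPKM, the reads of a gene per transcript length and per total reads. JUN, the founding subunit of AP-1, was the highest, with a mean of 70.2 ± 20.7 FPKM (SD over the 6 libraries), above 95.9% of genes. JUND, the Jun protein that resting cells are known to hold, followed with 39.5 ± 9.99 FPKM and IER2 with 14.3 ± 1.36 FPKM. In every library JUN lay above JUND and JUND above IER2, and their ranges did not overlap.

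JUNB averaged 6.99 FPKM, EGR1 5.21 FPKM and FOSL2 3.39 FPKM, and neighbours in this order had overlapping ranges, although the order held within each of the 6 libraries. FOS averaged 1.16 ± 0.403 FPKM, on 8 to 19 counts per library. FOSB lay between 0.05 and 0.38 FPKM, on 1 to 7 counts. EGR2 lay between 0 and 0.29 FPKM and EGR3 between 0 and 0.25 FPKM, on 0 to 4 and 0 to 5 counts, so their order cannot be told apart at this depth. The libraries held 4898287 to 5051448 expected counts, and a count of 0 allows up to 3 counts, 0.594 to 0.612 CPM (library-scaled counts), for counting error only.

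**Figure D1:**
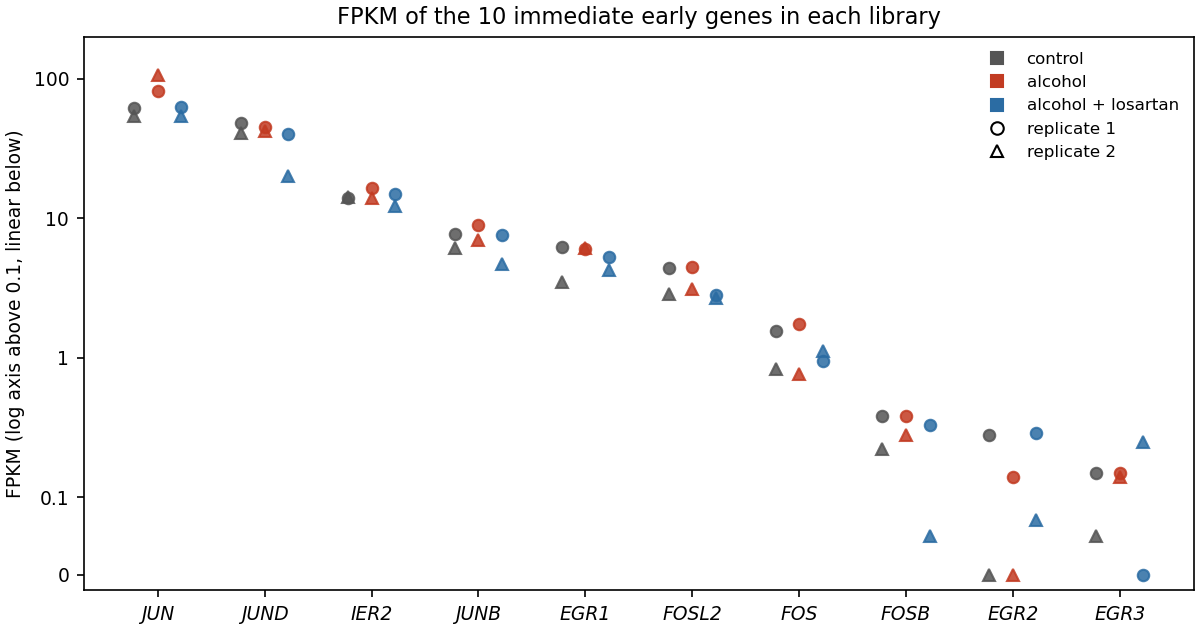
FPKM of the 10 genes in each library, on an axis that is logarithmic above 0.1 and linear below. Colors mark the 3 groups and symbols the replicate, and JUN is the gene whose 2 alcohol libraries, at 81.27 and 107.14 FPKM, both lie above its other 4.

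The Jun family outweighed the Fos family in every library. JUN, JUNB and JUND together summed to 78.2 to 156 FPKM, and FOS, FOSB and FOSL2 to 3.82 to 6.58 FPKM, a ratio of 18.6 to 37.5. JUN made up 52.7% and 53.6% of the Jun sum in control, 60.1% and 68.5% in alcohol, and 56.7% and 68.5% in co-treated cells. The share was therefore higher in both treated groups than in either control library, on a higher JUN level in alcohol and, in the co-treated library at 68.5%, on a low JUND level. FOSL2, also called Fra-2, supplied 67.8% to 75.1% of the sum of FOS, FOSB and FOSL2. FOSL1, a Fos family gene that is not a member here, was left out of that sum. It lay between 0.14 and 0.69 FPKM.

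In the comparison of alcohol with control, which asks what 24 h of alcohol did to these cells, JUN stood apart from the other members. Its level was 62.15 and 54.11 FPKM in the control libraries against 81.27 and 107.14 FPKM in the alcohol libraries, from 1053, 914, 1377 and 1762 counts. Both alcohol libraries lay above both control libraries, and the lower of them exceeded the higher control. This was a log2 fold change of 0.65 (standard error 0.14, 95% interval 0.35 to 0.96), a 1.57-fold higher level, with an adjusted p of 0.113 from edgeR, which does not pass 0.05. By p it ranked 60 of the 14926 genes tested.

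In the comparison of co-treated cells with alcohol, which asks what losartan changed in the presence of alcohol, JUN measured 62.89 and 53.62 FPKM in co-treated cells, from 1033 and 904 counts. Both values lay below both alcohol libraries, and together they spanned nearly the range of the control libraries, 54.11 to 62.15 FPKM. Against alcohol the log2 fold change was -0.70 (standard error 0.14, 95% interval -1.001 to -0.394), a 1.62-fold lower level, with an adjusted p of 0.423 from edgeR. By p it ranked 9 of 14926. Against control the log2 fold change was -0.05 with an interval of -0.35 to 0.26 (adjusted p = 0.930 from edgeR). The first and second comparison share the alcohol libraries, so their opposite signs are not separate evidence.

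The JUN call depended on the tool and on 1 library. DESeq2 gave an adjusted p of 0.0168 for alcohol against control and 0.0273 for co-treated against alcohol. Without alcohol replicate 2, the library with the highest JUN, the log2 fold changes were 0.48 and -0.53 (adjusted p = 0.663 and 0.696 from edgeR), and without alcohol replicate 1 they were 0.81 and -0.86 (0.0155 and 0.0389). The direction held in all 16 alternatives of each comparison. Alcohol replicate 2 also had the lowest sum over 16 cardiomyocyte markers, 25845 FPKM against 29272 to 35087 FPKM in the other 5. Its sum over 5 smooth muscle markers was the lowest too, 742 FPKM against 1014 to 1952 FPKM. The cardiomyocyte markers did not move together. MYL7, the largest of them, was lowest in that library (9321.12 FPKM), while MYH6, TNNI1, NKX2-5 and TBX5 were highest there. The part of these markers in the JUN level was not tested. In bulk RNA fewer cells of a type cannot be told apart from less RNA per cell.

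**Figure D2:**
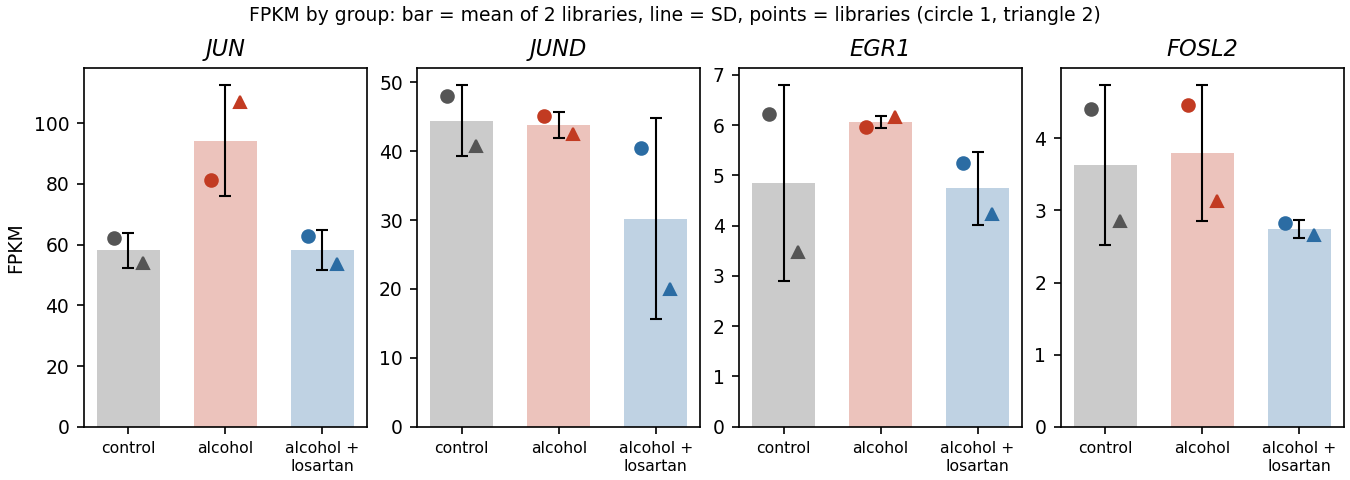
FPKM of JUN, JUND, EGR1 and FOSL2 by group, with bars for the mean of 2 libraries, lines for the SD and points for the libraries. JUN is higher in both alcohol libraries than in the other 4, and JUND is lowest in co-treated replicate 2 at 19.92 FPKM.

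JUND followed another pattern. It measured 48.04 and 40.78 FPKM in control, 45.11 and 42.41 FPKM in alcohol, and 40.48 and 19.92 FPKM in co-treated cells. Control and alcohol overlapped, and both co-treated libraries lay below them, 1 of them narrowly and the other far below. On the log2 scale the difference was -0.06 between alcohol and control (95% interval -0.55 to 0.43), -0.55 between co-treated and alcohol (-1.05 to -0.05, adjusted p = 0.882) and -0.61 between co-treated and control (-1.11 to -0.11, adjusted p = 0.290), all from edgeR.

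The lower JUND level rested on co-treated replicate 2. With that library left out, JUND differed by -0.14 from alcohol and by -0.20 from control on the log2 scale, and with co-treated replicate 1 left out by -1.13 and -1.19. JUND mRNA has a GC content of 69.7%, higher than that of 99.4% of genes, and co-treated replicate 2 was low across GC-rich genes. The 10% of genes highest in GC lay at a median of -0.30 on the log2 scale from their mean over libraries there, against 0.04 to 0.11 in the other 5 libraries. After correction for GC content and length the log2 fold changes of JUND were -0.33 against alcohol and -0.44 against control (adjusted p = 0.942 and 0.211 from edgeR). Their intervals, -0.659 to -0.005 and -0.765 to -0.112, held only negative values before adjustment over genes, as they did without the correction. Whether GC content accounts for the lower JUND level was not tested. The difference of JUND between the 2 co-treated libraries, 0.99 on the log2 scale, was matched or exceeded by 6.24% of the genes in those 10%.

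**Figure D3:**
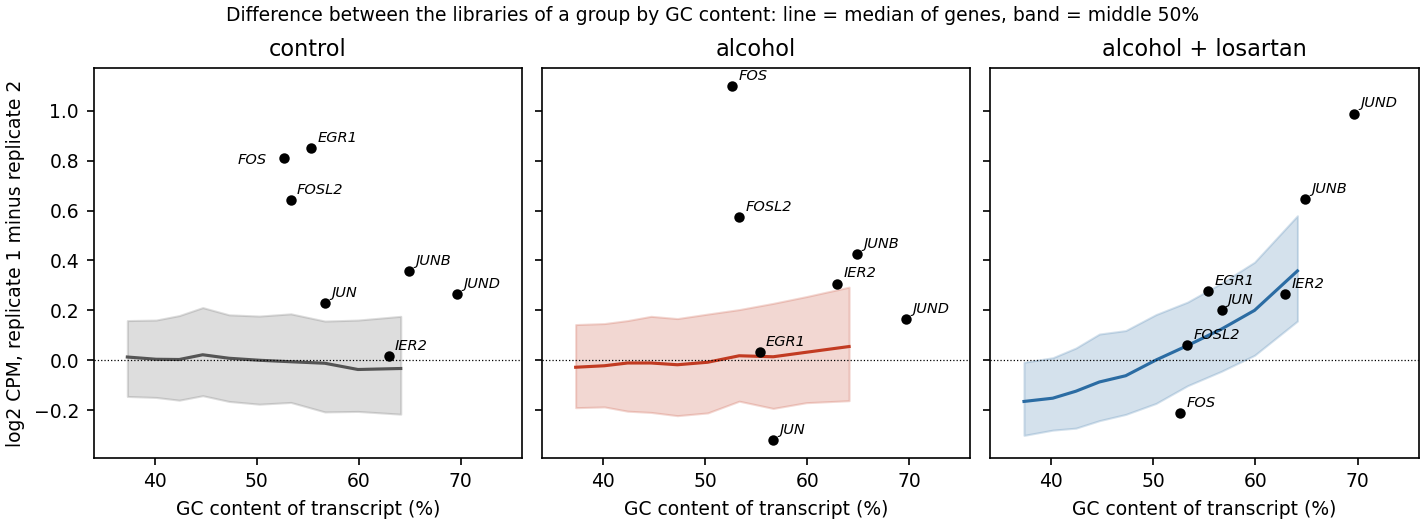
Log2 CPM of replicate 1 minus replicate 2 within each group against the GC content of the transcript, with the median (line) and the middle 50% (band) of genes in 10 bins by GC and the 7 tested members as points. In the co-treated pair the line rises to 0.36 in the top bin, and JUND, JUNB and IER2 are the members with the highest GC content.

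JUNB, the Jun protein that often opposes JUN in AP-1, measured 7.70 and 6.10 FPKM in control, 8.90 and 6.93 FPKM in alcohol and 7.61 and 4.69 FPKM in co-treated cells. The 3 groups overlapped. JUNB had a log2 fold change of 0.16 for alcohol against control (95% interval -0.43 to 0.76) and -0.38 for co-treated against alcohol (-0.98 to 0.22). The latter was -0.085 with co-treated replicate 2 left out, -0.75 with replicate 1 of that group left out, -0.155 and -0.584 without alcohol replicates 1 and 2, and -0.225 after the GC and length correction, JUNB being the second member in GC content at 64.9%. JUNB overlaps HOOK2 on the opposite strand, and the strandedness of the libraries is not given in the sources used here, so reads of the 2 genes may not be told apart.

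Of the Fos family, FOSL2 measured 4.41 and 2.85 FPKM in control, 4.46 and 3.13 FPKM in alcohol and 2.83 and 2.66 FPKM in co-treated cells. Both co-treated libraries lay below the other 4, narrowly so against control replicate 2. Its log2 fold change was -0.48 against alcohol (95% interval -1.08 to 0.12, adjusted p = 0.915 from edgeR) and -0.45 against control (-1.06 to 0.15, adjusted p = 0.551 from edgeR). The first became -0.17 with alcohol replicate 1 left out and -0.75 with replicate 2 left out, and the second -0.09 without control replicate 1 and -0.74 without control replicate 2. FOSL2 overlaps the antisense gene FLJ31356.

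FOS, the partner of JUN in classical AP-1, measured 1.56 and 0.83 FPKM in control, 1.74 and 0.76 FPKM in alcohol and 0.95 and 1.11 FPKM in co-treated cells. The spread within the control and alcohol pairs was wider than the differences between groups. Its log2 fold changes were 0.04, -0.30 and -0.26 for alcohol against control, co-treated against alcohol and co-treated against control, and the interval of the first, -1.18 to 1.25, holds 2-fold changes in either direction. FOSB, whose short splice form is known to accumulate under repeated stimulation, had 7 and 4 counts in control, 7 and 5 in alcohol and 6 and 1 in co-treated cells, and it overlaps ERCC1 on the opposite strand. It did not pass the expression filter and was not tested.

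EGR1, a zinc finger factor that is a standard readout of ERK signaling, measured 6.22 and 3.47 FPKM in control, 5.97 and 6.15 FPKM in alcohol and 5.25 and 4.23 FPKM in co-treated cells. The alcohol libraries lay between the higher control and the co-treated libraries, and co-treated and alcohol did not overlap. EGR1 had a log2 fold change of 0.28 for alcohol against control (95% interval -0.28 to 0.84) and -0.36 for co-treated against alcohol (-0.93 to 0.20), with adjusted p of 0.758 and 0.923 from edgeR. The control libraries alone differed 1.79-fold, from 99 and 55 counts (exact 95% interval 1.28 to 2.54 for counting error), which is larger than either group difference.

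EGR2, known from nerve and immune cells, had 4 and 0 counts in control, 2 and 0 in alcohol and 4 and 1 in co-treated cells. EGR3, a relative that EGR1 is known to induce, had 3 and 1, 3 and 3, and 0 and 5 counts. Neither gene passed the filter, and no fold is given for them. IER2 was the steadiest member, with 14.06 and 14.19 FPKM in control, 16.34 and 13.89 FPKM in alcohol and 14.99 and 12.22 FPKM in co-treated cells. Its log2 fold change was 0.06 for alcohol against control (95% interval -0.31 to 0.44), -0.16 for co-treated against alcohol (-0.54 to 0.21) and -0.10 for co-treated against control (-0.48 to 0.28).

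**Figure D4:**
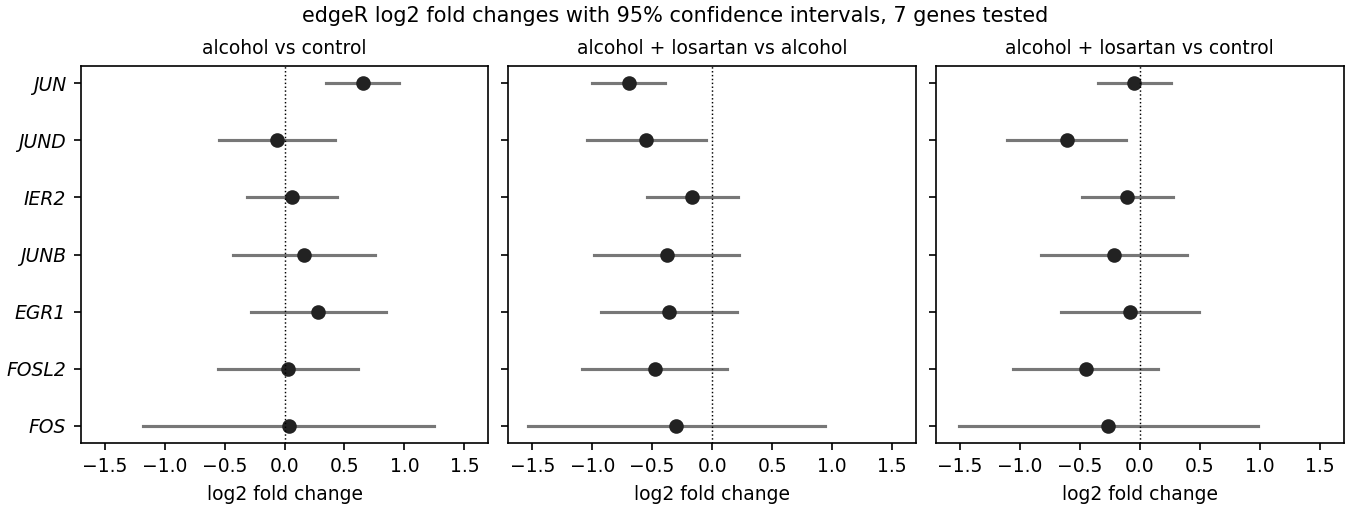
Log2 fold changes from edgeR (points) with 95% confidence intervals (lines) for the 7 members tested, in the 3 comparisons. Intervals leave out 0 for JUN in the first comparison, for JUN and JUND in the second and for JUND in the third, before adjustment over genes.

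Of the 10 members, 7 passed the expression filter, and none was called at an adjusted p under 0.05 in any comparison, where 0.0670%, 0.0134% and 0.362% of all 14926 genes were called for alcohol against control, co-treated against alcohol and co-treated against control. At an unadjusted p under 0.05, 1 member (JUN) passed for alcohol against control, where 11.0% of all genes did. For co-treated against alcohol 2 members passed (JUN and JUND, both lower), where 5.55% of all genes did, and for co-treated against control 1 passed (JUND), where 12.6% did. The share of 1 in 7 lies near that of all genes, and the higher share in co-treated against alcohol rests on 2 genes.

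Direction was more uniform than size. The log2 fold change was above 0 for 6 of the 7 tested members in alcohol against control and below 0 for all 7 in both comparisons with co-treated cells. The median over the tested members was 0.06 for alcohol against control, -0.38 for co-treated against alcohol and -0.22 for co-treated against control, beside medians of -0.0033, 0.0023 and -0.0017 over all genes. Libraries of the groups did not overlap for 1 member in the first comparison, where this held for 43.8% of all genes, for 4 members (JUN, JUND, EGR1 and FOSL2) in the second, against 33.6%, and for 2 members (JUND and FOSL2) in co-treated against control, where it held for 43.3%. The 3 comparisons share libraries, so these medians are not independent of each other. They also moved with single libraries. The median for co-treated against control was 0.02 without co-treated replicate 2, -0.02 without control replicate 1, -0.45 without control replicate 2 and -0.10 after the GC and length correction. For co-treated against alcohol it stayed below 0, from -0.17 without alcohol replicate 1 to -0.58 without alcohol replicate 2 (-0.23 without co-treated replicate 2), and for alcohol against control it ran from -0.09 without alcohol replicate 1 to 0.41 without control replicate 1.

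The members also moved together between libraries of the same group. Replicate 1 was above replicate 2 for 7 of 7 tested members in control, 6 of 7 in alcohol (all but JUN) and 6 of 7 in co-treated cells (all but FOS), while over all genes the share was 49.7%, 49.7% and 51.0%. The median difference was 0.36, 0.31 and 0.26 on the log2 scale. These within-group differences are of the size of the -0.38 and -0.22 between groups. In alcohol replicate 1 all 7 tested members lay above their own mean over the 6 libraries, and in co-treated replicate 2 none did.

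Over the 6 libraries, the genes whose log2 CPM followed the mean of the tested members most closely were MMP23B and TEN1 (Pearson r = 0.986 for both), CYFIP1 and PDP1 (0.985 for both) and FGD1 (0.983), and 110 of 14919 other genes had r over 0.9. For JUN alone, a profile looked at after its values were seen, the closest were FIZ1 (0.989), ZNF365 (0.986), BCAM and MDGA1 (0.981 for both) and CCNL2 (0.980). These correlations rest on 6 libraries, 2 of each treatment and 1 of them (co-treated replicate 2) low in GC-rich genes, and are given as a description.

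ATF3, an immediate early gene whose protein pairs with JUN, had a pattern much like that of JUN. It measured 14.17 and 12.68 FPKM in control, 19.79 and 25.81 FPKM in alcohol and 10.52 and 15.24 FPKM in co-treated cells. Both alcohol libraries were above the other 4. ATF3 had a log2 fold change of 0.74 for alcohol against control (adjusted p = 0.170 from edgeR) and -0.83 for co-treated against alcohol (adjusted p = 0.471), and no alternative gave an adjusted p under 0.05.

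Among 32 tested genes of a wider list of immediate early genes, 7 had an unadjusted p under 0.05 for alcohol against control (5 higher and 2 lower), 9 for co-treated against alcohol (1 higher and 8 lower) and 10 for co-treated against control (2 higher and 8 lower). These are shares of 21.9%, 28.1% and 31.2%, beside 11.0%, 5.55% and 12.6% of all genes. This list and those below were chosen with earlier results of these data known, so such shares are given as a description. RHOB, a small GTPase gene of the early response, was the gene of the wider list of immediate early genes that was called. It measured 38.79 and 36.00 FPKM in control, 35.48 and 42.87 FPKM in alcohol and 25.82 and 20.66 FPKM in co-treated cells, and it fell by 0.73 on the log2 scale against control (standard error 0.14, adjusted p = 0.0449 from edgeR). Both co-treated libraries were the lowest of the 6. The call was lost without any 1 of the control or co-treated libraries and held in 9 of 16 alternatives, with adjusted p from 0.0146 to 0.361.

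CYR61, which codes for a matricellular protein, measured 32.52 and 24.44 FPKM in alcohol against 14.86 and 17.86 FPKM in co-treated cells, a log2 fold change of -0.81 (adjusted p = 0.461 from edgeR). KLF10, a zinc finger gene induced by TGF-beta, went the other way, with 9.87 and 8.02 FPKM in alcohol against 11.18 and 13.12 FPKM in co-treated cells. That was a log2 fold change of 0.43 (adjusted p = 0.878 from edgeR). Against control, at 7.72 and 7.28 FPKM, the log2 fold change of KLF10 in co-treated cells was 0.65 (adjusted p = 0.141 from edgeR). Neither gene passed adjustment over all genes.

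Of the genes that carry the signal to these promoters, none was called by edgeR in the main fit. That fit took all 6 libraries by group, with no GC and length correction and no replicate block. Of 24 tested MAP kinases, MAP kinase kinases and their downstream kinases, 3 had an unadjusted p under 0.05 for alcohol against control, 0 for co-treated against alcohol and 3 for co-treated against control by edgeR, shares of 12.5%, 0% and 12.5% beside 11.0%, 5.55% and 12.6% of all genes. Of 20 tested factors that bind these promoters, 1, 3 and 2 did (5.0%, 15.0% and 10.0%). Of 18 tested partners of AP-1, 2, 1 and 6 did (11.1%, 5.56% and 33.3%), among the last of them MAFK, a small Maf protein, at 26.40 and 26.72 FPKM in control against 20.50 and 15.54 FPKM in co-treated cells (log2 fold change -0.61, adjusted p = 0.129 from edgeR). STAT3, a factor at the FOS promoter, measured 31.69 and 32.11 FPKM in control against 45.86 and 45.59 FPKM in co-treated cells, a log2 fold change of 0.48 (adjusted p = 0.0885 from edgeR). It was called in 1 of 16 alternatives, the GC and length correction with the replicate block (adjusted p = 0.0407 from edgeR).

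A further list held genes that end the early response. Of 24 tested feedback and mRNA decay genes, 5 had an unadjusted p under 0.05 for alcohol against control (3 higher and 2 lower), 3 for co-treated against alcohol and 5 for co-treated against control, the latter 8 all lower. These are shares of 20.8%, 12.5% and 20.8%, beside 11.0%, 5.55% and 12.6% of all genes. SPRY4, an inhibitor of receptor tyrosine kinase signaling, measured 6.65 and 4.83 FPKM in control, 3.66 and 1.82 FPKM in alcohol and 1.25 and 1.65 FPKM in co-treated cells. The groups did not overlap in any comparison. Against control it fell by 2.03 on the log2 scale in co-treated cells (standard error 0.32, adjusted p = 0.0203 from edgeR). The call held in 11 of 16 alternatives and was lost without either co-treated library, among others, with adjusted p from 0.000132 to 0.308.

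DUSP6, the phosphatase of ERK that ERK signaling induces, measured 3.77 and 2.34 FPKM in control, 2.74 and 2.03 FPKM in alcohol and 1.32 and 1.27 FPKM in co-treated cells. Both co-treated libraries were below the other 4. Its log2 fold change against control was -1.31 (adjusted p = 0.120 from edgeR).

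Of 27 tested genes known as AP-1 or EGR targets, 7 had an unadjusted p under 0.05 for alcohol against control (2 higher and 5 lower), 4 for co-treated against alcohol and 6 for co-treated against control, the latter 10 all lower. These are shares of 25.9%, 14.8% and 22.2%, beside 11.0%, 5.55% and 12.6% of all genes. F3 and MMP2 were the 2 higher for alcohol against control, with log2 fold changes of 0.58 and 0.40 (adjusted p = 0.401 and 0.354 from edgeR). For each, both alcohol libraries lay above all control and co-treated libraries. ANKRD1, a stress-responsive gene of the cardiac sarcomere, measured 1550.87 and 1061.85 FPKM in control, 1114.28 and 523.9 FPKM in alcohol and 454.51 and 479.73 FPKM in co-treated cells. It fell by 1.53 on the log2 scale against control in co-treated cells (standard error 0.29, adjusted p = 0.0410 from edgeR). The call held in 9 of 16 alternatives and was lost with DESeq2, without control replicate 1 and without either co-treated library, among others, with adjusted p from 0.000424 to 0.370. NPPB, the gene of B-type natriuretic peptide, measured 1720.56 and 1233.08 FPKM in control, 1078.55 and 300.58 FPKM in alcohol and 456.19 and 364.89 FPKM in co-treated cells. Its log2 fold change was -1.12 for alcohol against control (adjusted p = 0.313 from edgeR) and -1.90 for co-treated against control (adjusted p = 0.0732 from edgeR). The latter was called in 7 of 16 alternatives, with adjusted p from 8.51e-05 to 0.474.

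Medians of the log2 fold change over the tested genes of each list, in the order alcohol against control, co-treated against alcohol and co-treated against control, were -0.035, -0.156 and -0.222 for the other immediate early genes and -0.092, -0.089 and -0.155 for the feedback and mRNA decay genes. For the AP-1 and EGR targets they were -0.261, -0.192 and -0.366, with 23 of the 27 below 0 in the last comparison. The sum over 5 smooth muscle markers was also lower than in control (1952 and 1714 FPKM) in both treated groups. It was 1479 and 742 FPKM in alcohol, and 1014 and 1060 FPKM in co-treated cells, which lay between the alcohol libraries. TAGLN, ACTA2 and MYH11 were below both control libraries in every treated library, while CNN1 and LMOD1 overlapped control. The part of these markers in the values of the lists was not tested. The kinases (0.032, -0.059 and -0.008), the AP-1 partners (0.012, -0.003 and -0.005) and the promoter binding factors (0.094, -0.042 and 0.068) lay nearer to 0, the median of all genes being within 0.01 of 0 throughout. All these list medians are from the main fit. Co-treated replicate 2, low in GC-rich genes, enters both comparisons with co-treated cells, and its part in the medians was not tested.

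The cell type of the label was checked against marker lists. All 16 cardiomyocyte markers exceeded 10 FPKM on average in control, with sums of 25845 to 35087 FPKM per library, while 5 endothelial markers summed to 5.90 to 10.5 FPKM and 5 pluripotency markers to 9.80 to 16.4 FPKM. The sum of 10 fibroblast markers was 423 to 520 FPKM and that of 5 endoderm and liver markers 36.7 to 49.4 FPKM. The smooth muscle sum, the largest of the lists for other cell types, was 742 to 1952 FPKM, with 4 of 5 markers above 10 FPKM on average in control and both control libraries above the other 4. No marker was at 0 in all libraries.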

How the data were processed

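Human cardiomyocytes of the line H9 were profiled by RNA-seq in 3 groups of 2 libraries, grouped by the sample labels. Each library came with the expected count of each gene deposited by the authors (an estimate, 33.9% of values not whole) and its FPKM, also deposited by the authors, which scales the former by length and library reads. A series table gave the symbols. The submitters' processing notes name HISAT2 2.0.4, Bowtie2 2.2.5, RSEM 1.2.12 and hg38, without their roles. Genes missing from a library's table were set to 0. An expected count is shared by estimate among transcripts, so overlapping or similar genes may exchange reads.

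Rounded expected counts were tested with edgeR 4.0.16 (R 4.3.3): quasi-likelihood F test, two-sided, TMM normalization, filterByExpr, 6 libraries in 1 fit, Benjamini-Hochberg adjustment over 14926 genes at 0.05. Log2 CPM used a prior count of 2, and the counts summed to 4898287 to 5051448 per library. Standard errors are the size of the log2 estimate over the root of F, and intervals are at 95%. An exact permutation test of 2 against 2 libraries cannot go below 0.333. The counts of replicate libraries had a chi-square of 3.84 to 6.13 per degree of freedom, and none was treated as a duplicate. Simulated counts for 14685 genes, 200 of them changed by 1 or 2 on the log2 scale, served to check the fit. It called 91.2% of the genes changed by 2, 70.6% of those changed by 1, and 18 unchanged genes. Changes smaller than 1, such as that of JUN, were not simulated.

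Alternatives were DESeq2 1.42.0, RLE size factors, no filter, at least 10 counts in every library, limma 3.58.1 on log2(FPKM + 1) or log2(FPKM + 0.1), only the 4 libraries compared, each library left out, and a block for the replicate number. A loess correction for GC content and transcript length (span 0.3; values for 97.5% of genes, GENCODE transcripts), alone or with the block, was chosen after seeing the data. Promoters and loci came from RefSeq GRCh38.p14. Promoters were taken at the first listed start of each gene, with 9 of 10 members matched. Members and lists were chosen with earlier results of these data known. Named were all members, and of each further list the genes called and up to 2 rising and 2 falling genes per comparison among those with an unadjusted p under 0.05, from which examples are given. The lists were other immediate early genes, AP-1 partners, upstream kinases, promoter binding factors, feedback and mRNA decay genes, and AP-1 and EGR targets.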

Additional observations from a re-analysis of the deposited data

How the results depend on the processing

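Of 333 log2 fold changes of members under 16 alternatives, 308 kept their direction and side of the threshold, 4 passed it (JUN with DESeq2 and without alcohol replicate 1, in both comparisons that use alcohol) and 21 changed sign, 17 of them with a library left out. The others were, with limma on log2(FPKM + 1) and log2(FPKM + 0.1), EGR1 at 0.0092 and 0.019 and JUN at 0.00196 and 0.00197 for co-treated against control. With single libraries left out, the members that changed sign ranged, for alcohol against control, from -0.078 to 0.793 (EGR1), -0.719 to 0.588 (FOS), -0.282 to 0.407 (FOSL2), -0.090 to 0.211 (IER2), -0.061 to 0.369 (JUNB) and -0.173 to 0.092 (JUND). For co-treated against alcohol FOS ranged from -0.804 to 0.457. For co-treated against control the ranges were -0.453 to 0.417 (EGR1), -0.657 to 0.276 (FOS), -0.240 to 0.023 (IER2), -0.155 to 0.074 (JUN) and -0.588 to 0.078 (JUNB). The median of members for alcohol against control ranged from -0.090 to 0.407, the highest without control replicate 1. Members with an unadjusted p under 0.05 numbered 1 to 2, 1 to 3 and 0 to 2 in the 3 comparisons with a library left out, and with DESeq2 1 for co-treated against alcohol and 0 for co-treated against control. The cause was not tested.

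Genes called for alcohol against control numbered 10, and 50 with DESeq2, 2 with no filter, 26 with at least 10 counts, 0 and 2 with limma (pseudocounts 1 and 0.1), 3 with only the 4 libraries, and 1 (without alcohol replicate 2) to 220 (without alcohol replicate 1) with a library left out. For co-treated against alcohol they numbered 2, and 5 with DESeq2, 1 with no filter, 0 with at least 10 counts, 1 with limma (pseudocount 1), 4 with only the 4 libraries, and 1 to 24. For co-treated against control they numbered 54, and 119 with DESeq2, 15 with no filter, 2 and 3 with limma, 158 with only the 4 libraries, 90 with the GC and length correction, and 2 (without co-treated replicate 2) to 184 (without alcohol replicate 1). Where limma called 0 and the minimum of 10 counts left 0, 1545 and 778 genes had an unadjusted p under 0.05. The replicate block gave 48, 5 and 136 calls, and with the GC and length correction 43, 1 and 177. Deviations of same-numbered libraries correlated at 0.114, -0.016 and 0.041 between groups, not over 0.1 in every pair, so the numbers were not taken to pair the libraries. What a repeat number marks is not given in the sources used here. The block called no member. Depth limits FOS, FOSB, EGR2 and EGR3 most, at 0 to 19 counts per library.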
